A study of Mus musculus with 4 samples.

Results

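Neuropilins, semaphorins and plexins were read in 4 sorted populations of mouse CD4+ T cells, through 8 genes named for this purpose, Nrp1, Nrp2, Sema4a, Sema4b, Sema4d, Sema7a, Plxnc1 and Plxnd1. All probe sets that the array's annotation gives to exactly 1 of these genes were taken, which gave 24 of the 34945 probe sets with 1 gene. Of them 14 probe sets, of 7 genes, reached an intensity of 32.5 in at least 1 array, the filter for a measured gene. Nrp2 did not. The whole series held 9622 measured genes.

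Spleen and lymph node cells were pooled from 25 male B6/129 F2 mice, aged 5 to 8 weeks. All mice carried a Foxp3-GFP knock-in, in which green fluorescent protein (GFP) reports Foxp3, the factor that defines regulatory T (Treg) cells. Cells bearing CD8, B220, CD11b, NK1.1 or DX5 were removed, and CD4+ cells were sorted on GFP and on CD25, a chain of the receptor for IL-2. The Foxp3+ groups were CD25hi and CD25lo, the Foxp3- groups were CD25+ and CD25-, and wherever 4 values stand in a row they follow this order. None carried a further treatment in the labels. Each group was 1 array of RNA from pooled mice, so no value has a replicate or an error, and differences are given by size with no test.

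Semaphorins are secreted or membrane-bound guidance proteins, first known from growing axons. They bind plexins, large receptors that act on small GTPases and the actin skeleton, either directly or with a neuropilin as co-receptor. Among immune cells, Nrp1 is known as a surface protein of Treg cells made in the thymus and as a receptor for Sema4a. It also binds secreted semaphorins and vascular endothelial growth factor. Plxnd1 is a receptor for Sema3e and Sema4a, Plxnc1 for Sema7a, and Sema4d (CD100) is bound by Plxnb1, Plxnb2 and CD72.

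Nrp1 and Plxnd1 read higher, and Sema4a lower, in both Foxp3+ than in both Foxp3- arrays. Their promoters are shown as the sequences of the genes that differed by this split, from RefSeq on build GRCm38.p6. Each runs from 250 bases before to 50 after a transcript start, in the direction of transcription. Capitals mark the GC box GGGCGG, read on both strands.
Nrp1 promoter, chr8:128358823-128359122, plus strand: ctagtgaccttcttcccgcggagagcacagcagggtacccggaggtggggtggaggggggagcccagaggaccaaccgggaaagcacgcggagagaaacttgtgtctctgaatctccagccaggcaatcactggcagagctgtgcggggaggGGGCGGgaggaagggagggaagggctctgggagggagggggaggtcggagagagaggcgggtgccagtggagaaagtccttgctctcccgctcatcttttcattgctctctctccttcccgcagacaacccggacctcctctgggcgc
Plxnd1 promoter, chr6:115994956-115995255, minus strand: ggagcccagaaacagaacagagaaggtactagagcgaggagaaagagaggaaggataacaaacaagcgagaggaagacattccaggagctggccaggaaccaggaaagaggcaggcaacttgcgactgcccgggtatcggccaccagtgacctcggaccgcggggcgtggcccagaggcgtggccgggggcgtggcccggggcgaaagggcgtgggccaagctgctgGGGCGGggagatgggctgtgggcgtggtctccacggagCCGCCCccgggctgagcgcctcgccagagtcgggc
Sema4a promoter, chr3:88461133-88461432, minus strand: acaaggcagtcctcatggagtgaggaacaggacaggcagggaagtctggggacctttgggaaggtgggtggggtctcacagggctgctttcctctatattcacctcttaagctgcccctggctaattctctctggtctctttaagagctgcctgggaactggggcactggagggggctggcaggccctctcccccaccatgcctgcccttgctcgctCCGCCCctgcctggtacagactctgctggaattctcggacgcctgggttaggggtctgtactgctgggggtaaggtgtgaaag

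The promoter table held 14 such windows for the 8 genes, 4 of them for Sema4a, of which the farthest upstream is printed. A GC box stood in 11 of the 14 windows, and 35.7% of the 32851 windows of that length in the table hold one. The forkhead motif TGTTTAC, the ETS motif CCGGAAGT and the cyclic AMP response element TGACGTCA were in none of the 14, on either strand. They are found in 3.65%, 3.89% and 1.79% of all windows. These matches describe letters in these windows only.

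The sort gene Foxp3 read 1308, 1117, 16.8 and 17.6, and Il2ra, which encodes CD25, read 1562, 288, 283 and 22.3. The arrays had medians between 15.03 and 15.6. The T cell markers Cd4, Cd3d, Cd3e, Cd3g, Cd28 and Cd5 reached the filter in all 4 arrays, and Cd4 read between 2434 and 2948. Markers of endothelial and stromal cells, in which Nrp1 and Plxnd1 are also known, had 3 of 11 measured. Pecam1, which T cells also express, read 157, 121, 74.9 and 159. Egfl7 read between 35.5 and 50.8, and Pdgfrb read 77.3 in CD25+ Foxp3- cells and at most 10.2 in the others. The summed level of the 3 was 206, 182, 188 and 216, while Cdh5, Kdr and Emcn were at the floor of 10.1 in every array. Of markers of plasmacytoid dendritic cells, which also bear Nrp1, Siglech was at the floor in every array. The summed level of the 4 measured of 7 was 1369, 1447, 1907 and 640, of which Ccr9 gave 896, 993, 1154 and 239. None of the 4 met the rule for a Foxp3 split given below, which 2.8% of all measured genes met upward and 1.93% downward.

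Nrp1, the co-receptor, read 3683 in the CD25hi and 5447 in the CD25lo Foxp3+ array. On the Foxp3- side it read 1053 with CD25 and 281 without. Both Foxp3+ arrays were above both Foxp3- arrays, and CD25+ Foxp3- cells stood between the Foxp3+ pair and the CD25- Foxp3- cells. From highest to lowest the array values spanned 19.4-fold, and 53 of the measured genes had a wider span. The median span of a measured gene was 1.68-fold. In bulk samples, fewer cells with the transcript and less transcript per cell cannot be told apart.

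**Figure D1:**
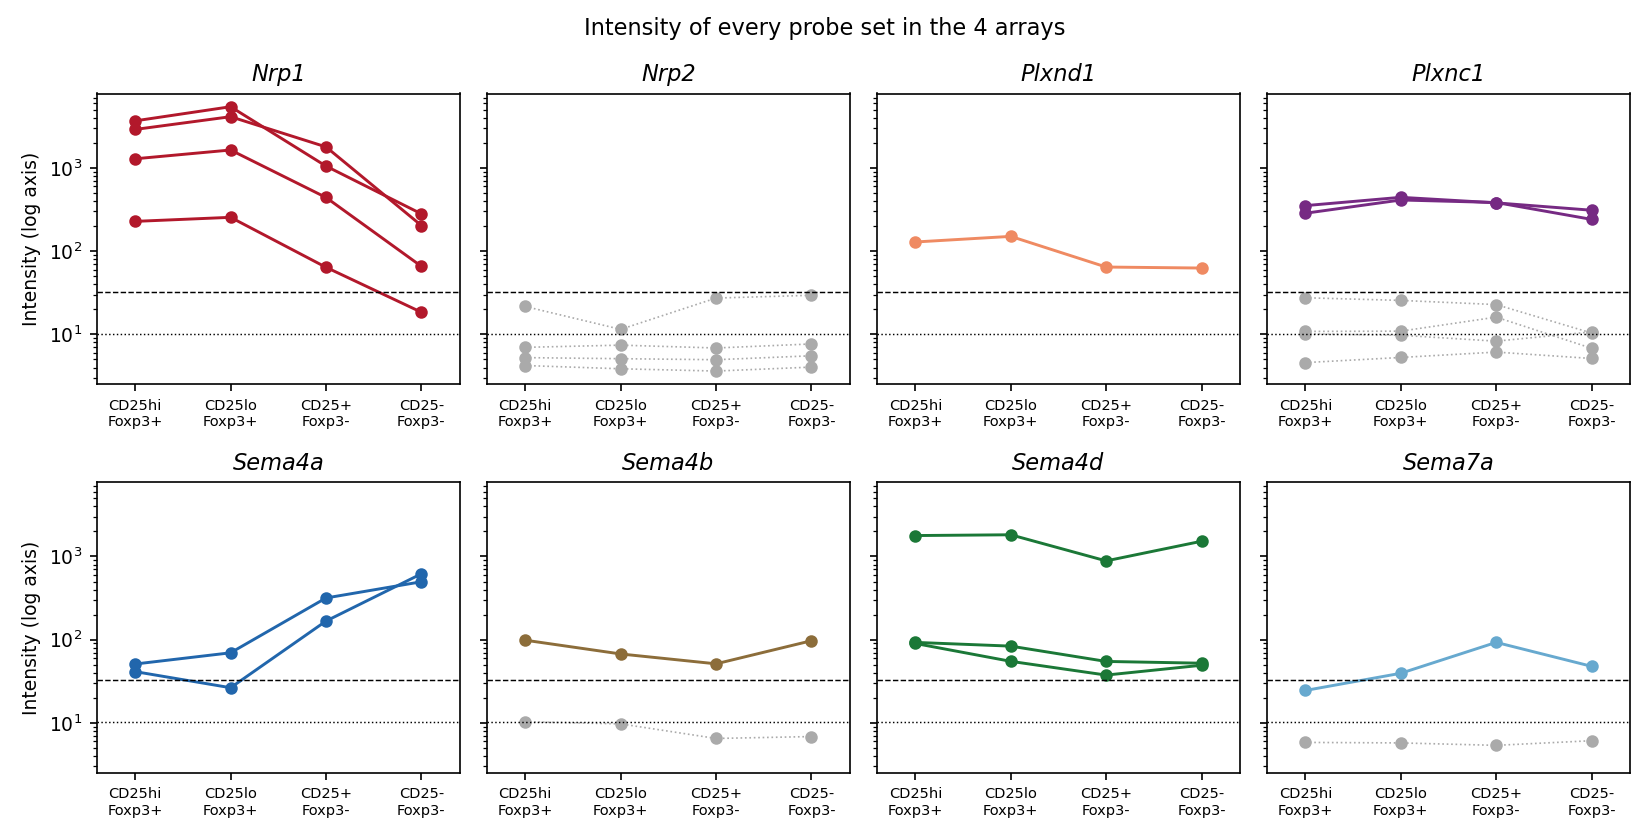
Intensity on a log axis of all 24 probe sets in the 4 arrays, 1 panel per gene, with a line joining the values of 1 probe set. Coloured lines reach the filter of 32.5 (dashed) in an array, grey dotted lines do not, and the lower dotted rule is the floor of 10.1. All 4 Nrp1 probe sets fall from the Foxp3+ to the CD25- Foxp3- array and both of Sema4a are higher in the Foxp3- than in the Foxp3+ arrays.

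The other 3 Nrp1 probe sets gave the same order of populations. Probe set 1448943_at read 2905, 4132, 1792 and 203. Probe set 1448944_at read 1290, 1644, 442 and 65.8. The dimmest, 1457198_at, read 228, 255, 64.1 and 18.5. Over the 4 probe sets, which share the same RNA and are not replicates, CD25hi Foxp3+ exceeded CD25- Foxp3- cells by 3.87 ± 0.30 on the log2 scale (mean and SD), between 12.4-fold and 19.6-fold. CD25lo Foxp3+ cells exceeded them by 4.26 ± 0.35, between 13.8-fold and 25.0-fold.

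By CD25, Nrp1 read in opposite directions on the 2 sides of the Foxp3 split, though the difference among Foxp3+ cells was small. Among Foxp3- cells, CD25+ read above CD25- in 4 of 4 probe sets, by 2.40 ± 0.65 on the log2 scale, between 3.47-fold and 8.80-fold. Among Foxp3+ cells, CD25hi read below CD25lo in 4 of 4, by 1.12-fold to 1.48-fold, under the 1.5-fold used for a pairing. The mean log2 difference there was -0.40. The median absolute log2 difference over all measured genes was 0.27 between the Foxp3+ arrays and 0.46 between the Foxp3- arrays. The 2 CD25 differences were not tested against each other. The distance between CD25hi Foxp3+ and CD25+ Foxp3- cells also depended on the probe set, at 3.50-fold, 1.62-fold, 2.92-fold and 3.56-fold in the order of probe sets above.

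Plxnd1, the plexin that binds Sema4a, had 1 probe set and read 129, 151, 64.5 and 62.7. The pairs did not overlap, and within each pair the values were close. CD25hi lay 1.17-fold below CD25lo among Foxp3+ cells, and CD25+ lay 1.03-fold above CD25- among Foxp3- cells. On the log2 scale these differences were -0.22 and 0.04. The median absolute log2 difference over all measured genes between the same arrays was 0.27 and 0.46.

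Sema4a, a membrane semaphorin that binds Nrp1 and Plxnd1, showed the opposite split. Its probe set 1438934_x_at read 51.0, 69.6, 317 and 497. Probe set 1448110_at read 41.3, 26.5, 167 and 619. In both, the Foxp3- arrays were above the Foxp3+ arrays and CD25- Foxp3- cells read highest. The name of the first ends in _x_at, which the maker gives to probe sets whose probes can match other transcripts.

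The 2 Sema4a probe sets differed in the size of the steps. CD25- Foxp3- exceeded CD25hi Foxp3+ cells by 9.74-fold in the first and 15.0-fold in the second. Against CD25lo Foxp3+ cells the folds were 7.14 and 23.4, the last against a reading under the filter. Between the Foxp3- arrays the fold was 1.57 in the first and 3.70 in the second, so only the second was 2-fold apart there. The order of the Foxp3+ arrays turned, with CD25lo above CD25hi by 1.36-fold in the first and below it by 1.56-fold in the second. That CD25lo reading of the second was under the filter.

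B cells and myeloid cells are also known to express Sema4a, and some genes listed as markers of other cell types fell by the same split. By the pairing rule given below, 2 of 5 measured B cell markers and 6 of 9 CD8 T or NK markers were lower with Foxp3. So were 4 of 10 markers of myeloid or dendritic cells and 3 of 3 of red cells or platelets. Gzmb, from the CD8 T or NK list, was the 1 higher. Over all measured genes 1.93% were lower and 2.8% higher. The summed level was 156, 228, 302 and 348 for the B cell list. It was 936, 990, 2093 and 2131 for the CD8 T or NK list, 548, 1065, 3393 and 2407 for the myeloid list and 58.2, 127, 352 and 622 for the red cell list.

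The defining B cell marker Pax5 was at the floor in every array, and Cd79a read no higher than 10.3. Itgam and Cd14 of myeloid cells and Hba-a1 of red cells were also at the floor throughout. The 3 measured red cell markers were not, and were highest in CD25- Foxp3- cells, as Sema4a was. Car1 read 27.1, 94.9, 257 and 416, Alas2 17.1, 18.3, 48.5 and 99.1, and Klf1 14.0, 13.6, 46.3 and 107. The B cell marker Ms4a1 (CD20) read 15.9, 24.7, 66.7 and 145, rising in the same order as the first Sema4a probe set. Ly86 rose in that order too. Cd22 and Blk were highest in CD25+ Foxp3- cells, and Cd79b, at 97.2, 118, 58.4 and 69.2, was higher in both Foxp3+ arrays. The MHC class II gene H2-Aa read 132, 375, 1877 and 1098, highest in CD25+ Foxp3- cells, where Sema4a was not highest. The myeloid marker Csf1r read 57.8, 212, 147 and 305, Lyz2 27.8, 113, 70.6 and 147, and S100a9 46.1, 34.3, 82.7 and 144. These and S100a8 were highest in CD25- Foxp3- cells, as Sema4a was. The other measured markers of that list, H2-Ab1, Bst2, Tyrobp, Fcer1g and Adgre1, were highest in CD25+ Foxp3- cells, as H2-Aa was. The part of cells of other types in the Sema4a values was not tested.

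**Figure D2:**
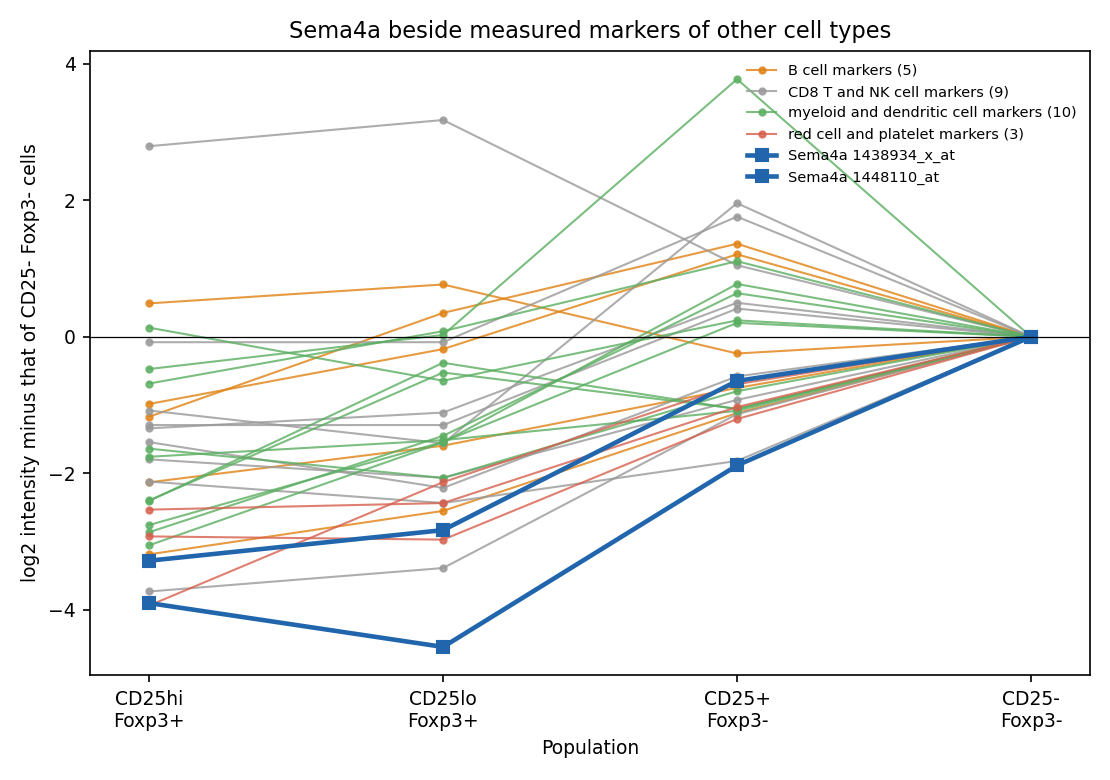
Difference in log2 intensity from CD25- Foxp3- cells, for both Sema4a probe sets (squares) and for each measured marker on the 4 lists of other cells named in the key (dots). Most markers lie below 0 in both Foxp3+ arrays, as Sema4a does, while in CD25+ Foxp3- cells markers lie on both sides of 0 and Sema4a stays below it.

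Across genes, a pairing counted where 2 arrays both stood above the remaining 2 and the nearest values were 1.5-fold or more apart. In the Foxp3 pairing, 2 of the 7 measured genes were higher in Foxp3+ cells, Nrp1 and Plxnd1, against 2.8% of all measured genes. Sema4a alone was lower, against 1.93% of all. The gap was 3.50-fold for Nrp1, the 25th widest upward, 2.00-fold for Plxnd1, the 112th, and 4.56-fold for Sema4a, the 17th widest downward. By probe sets, 6 of 14 were higher, against 2.36% of those that reached the filter, and 2 were lower, against 1.7%. The 6 were the 4 of Nrp1, that of Plxnd1 and 1 of Sema4d.

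The genes were chosen with results of these arrays known, and the Nrp1 difference is one of those results, so these shares describe the genes and carry no test. Of the 7 genes 6 reached the filter in all 4 arrays, and Sema7a did so in 3. The median log2 difference of the 7, Foxp3+ minus Foxp3-, was 0.21 beside -0.01 over all measured genes. Split by CD25, none of the 7 passed, against 1.29% of all measured genes. This pairing put CD25hi Foxp3+ with CD25+ Foxp3- cells, by the sort and not by the level of CD25 transcript. Il2ra itself did not pass it, at 283 in CD25+ Foxp3- and 288 in CD25lo Foxp3+ cells. In the third pairing, which follows neither marker, none passed, against 3.06%.

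**Figure D3:**
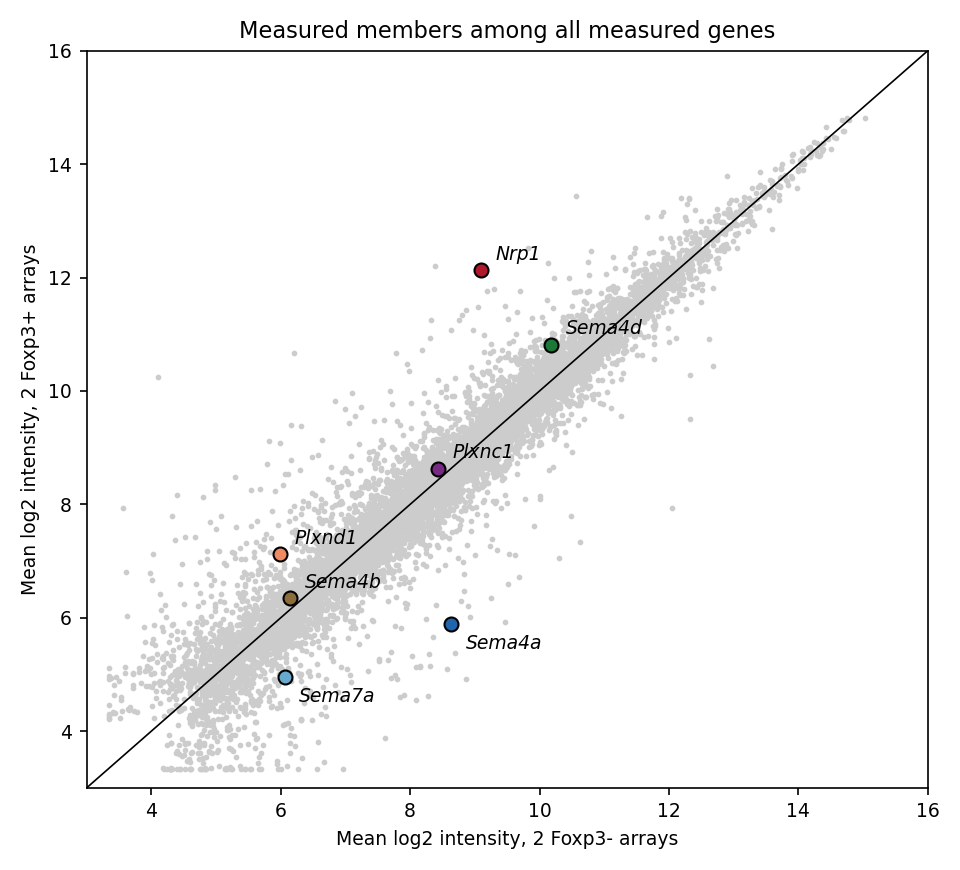
Mean log2 intensity of the 2 Foxp3+ arrays against that of the 2 Foxp3- arrays for 9622 measured genes (grey) and the 7 measured neuropilin, semaphorin and plexin genes (coloured), with the line of equality. Nrp1 lies 3.04 above the line, Plxnd1 1.13 above it and Sema4a 2.74 below it, and the other 4 lie nearer to it.

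Sema4d, a membrane semaphorin of resting T cells that can be shed, read 1784, 1823, 885 and 1524 in its main probe set. CD25+ Foxp3- cells stood apart as the lowest, 2.02-fold below CD25hi Foxp3+ and 1.72-fold below CD25- Foxp3- cells. The Foxp3+ pair was 1.02-fold apart and lay 1.17-fold or more above the CD25- Foxp3- array. Probe set 1420823_at read 92.8, 83.7, 54.8 and 52.2, with no low point in CD25+ Foxp3- cells. Probe set 1434596_at read 90.1, 54.9, 37.6 and 49.3.

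In all 3 Sema4d probe sets both Foxp3+ arrays were above both Foxp3- arrays, by gaps of 1.17-fold, 1.53-fold and 1.11-fold in the order given. They differed on the Foxp3- pair, where CD25+ was lower than CD25- in 2 and 1.05-fold higher in 1420823_at. Some T cell markers were also lowest in the CD25+ Foxp3- array. Cd3d read 9007, 9946, 6179 and 9886, and Cd3e, Cd3g and Cd5 were lowest there too. Cd28 was not, at 2596, 3602, 3300 and 3108, and Cd4 read 2434 there against 2455 in CD25hi Foxp3+ cells. The summed level of the 6 measured of 7 T cell markers, the largest part of it Cd3d, was 24735, 28529, 19274 and 26255. Their part in the Sema4d value was not tested.

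Sema4b, a related membrane semaphorin, read 98.6, 67.4, 51.3 and 97.2. CD25hi Foxp3+ and CD25- Foxp3- cells were 1.01-fold apart and both were above the other arrays, by a gap of 1.44-fold, just under the size of a pairing. The second Sema4b probe set read no higher than 10.3.

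Sema7a, a semaphorin anchored in the membrane by a lipid and known from activated T cells, read 24.5, 39.5, 92.8 and 47.8. CD25+ Foxp3- cells were highest, 3.78-fold above CD25hi Foxp3+, 2.35-fold above CD25lo Foxp3+ and 1.94-fold above CD25- Foxp3- cells. The value in CD25hi Foxp3+ cells was under the filter, so the size of its fold is uncertain. The other Sema7a probe set was below the floor in all 4 arrays, at 6.11 or less, and does not bear on this order. Some markers of other cell types were also highest in CD25+ Foxp3- cells. Among them were Cd22, at 14.0, 40.3, 81.4 and 31.6, Blk and H2-Aa, while others, such as Ms4a1 and Csf1r, were highest elsewhere. The part of cells of other types in the Sema7a values was not tested.

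Plxnc1, the plexin that binds Sema7a, varied least of the 7 measured genes. Its main probe set read 353, 444, 381 and 311, a span of 1.43-fold, and 1450905_at read 286, 412, 385 and 241, a span of 1.71-fold. Both put CD25lo Foxp3+ cells highest and CD25- Foxp3- cells lowest. The other 4 Plxnc1 probe sets did not reach the filter, and the brightest of them read at most 27.6.

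Nrp2, the second neuropilin, had 3 of 4 probe sets under the floor in every array, and the remaining one read 21.7, 11.5, 27.3 and 29.5. A level of Nrp2 was not detectable by the filter used here.

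**Figure D4:**
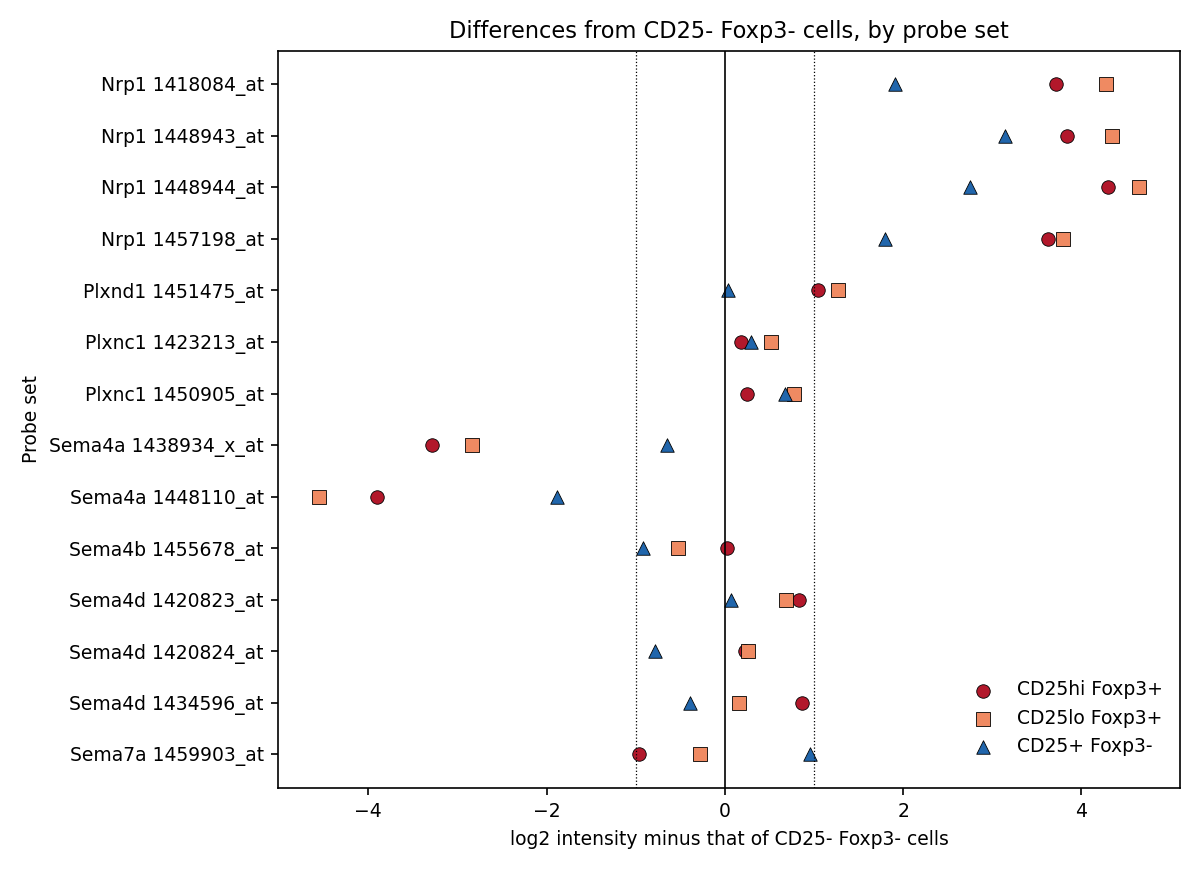
Difference in log2 intensity from CD25- Foxp3- cells for the 14 probe sets that reached the filter, with 1 symbol for each of the other 3 populations and dotted rules at 2-fold. Nrp1 lies to the right in all 3 populations, Sema4a to the left, and the probe sets of Plxnc1 within 2-fold.

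Set against each other array by array, the measured genes differed by 2-fold or more most often where a Foxp3+ met a Foxp3- array. Between CD25lo Foxp3+ and CD25+ Foxp3- cells 5 of 7 did, Nrp1, Sema4d and Plxnd1 upward and Sema4a and Sema7a downward, against 14.2% of all measured genes. Between CD25hi Foxp3+ and CD25+ Foxp3- cells 4 did, the same genes without Plxnd1, against 11.7%. CD25hi Foxp3+ against CD25- Foxp3- cells gave 3, Nrp1 and Plxnd1 upward and Sema4a downward, against 10.8%. CD25lo Foxp3+ against CD25- Foxp3- cells gave the same 3, against 16.0%. These comparisons share arrays and do not support each other.

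Within a Foxp3 state the counts were small and not far from the share of all measured genes. Between CD25+ and CD25- Foxp3- cells only Nrp1 was 2-fold apart, against 18.5% of all measured genes, although Sema4a was too in its second probe set. Between CD25hi and CD25lo Foxp3+ cells none was, against 5.72%. In at least 1 of the 6 comparisons 5 of the 7 were 2-fold apart, against 32.6% of all measured genes, and Sema4b and Plxnc1 were not.

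The pattern of each gene with a span of 2-fold was compared with that of every measured gene by the root mean square difference of centred log2 values over the 4 arrays. Closest to Nrp1 were Ctla4 at 0.16, Ikzf2 (Helios) at 0.20 and the integrin gene Itgb8 at 0.21. Ctla4 read 10132, 12173, 2682 and 852. Only 4 genes lay within 0.26, or 1.2-fold, of Nrp1. Closest to Sema4a were the sialyltransferase gene St3gal6 at 0.11, Klrd1 at 0.22 and the water channel gene Aqp1 at 0.24, with 3 genes within 0.26. Klrd1 is on the CD8 T or NK list.

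Patterns of smaller span were shared by many genes. Within 0.26 of Sema7a lay 36 genes, led by Blk, Fes and Tmlhe. Blk is on the B cell list, and Blk and Fes read between the floor and 46.8. Within 0.26 of Plxnd1 lay 170 genes, led by Iigp1, Peak1 and Pgpep1l, and of Sema4d 804, led by Dgat1, Wdr45 and Psg23. With 4 arrays such likeness is a description.

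The remaining members of these families were mostly unread. Of 23 other semaphorins and plexins 6 reached the filter, and 2 of them did so in all 4 arrays. Of the other 17, 8 were at the floor in every array, among them Sema3a, a secreted ligand of Nrp1, and Sema3e, one of Plxnd1. Sema3d and Sema3f were among the 6 that reached the filter. In the Foxp3 pairing 1 of the 6 was higher, Sema3d, beside 2.8% of all measured genes, and none was lower, beside 1.93%. Sema3d, a secreted semaphorin, read 25.8, 88.4, 16.3 and 13.8, so it passed the filter through CD25lo Foxp3+ cells alone. None of the 6 passed by CD25, beside 1.29% of all measured genes.

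Sema4f, a membrane semaphorin, read 198, 357, 530 and 783, in the same order as the first Sema4a probe set. Its gap of 1.48-fold fell just short of a pairing. Like that Sema4a probe set, the one read for Sema4f ends in _x_at, and its other probe set is not given here. Sema3f, also from an _x_at probe set, read between 86.5 and 107. Plxnb1, a receptor for Sema4d, read 52.9, 51.9, 38.2 and 31.4, with no overlap between the Foxp3 states but a gap of 1.36-fold. The median log2 difference of the 6, Foxp3+ minus Foxp3-, was 0.11.

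**Figure D5:**
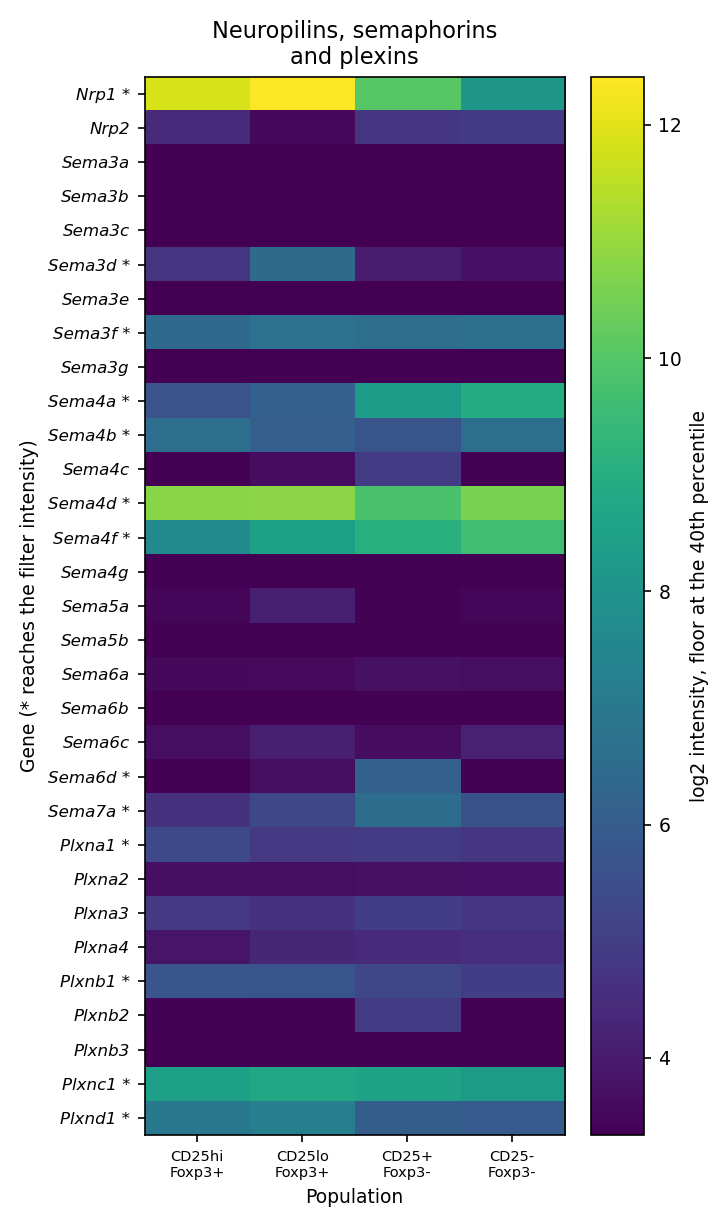
log2 intensity of 31 neuropilin, semaphorin and plexin genes in the 4 arrays, from the probe set read for the gene or, where none reached the filter (no asterisk), its brightest, with values under the floor drawn at it. Colours compare arrays within a row and not genes with each other. Most rows are dark in all 4 arrays, and Nrp1 and Sema4a show opposite gradients.

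Of 18 other receptors and ligands of these proteins 5 reached the filter. None of the 5 passed the Foxp3 pairing, beside 2.8% of all measured genes higher and 1.93% lower. By CD25 none passed either, beside 1.29%. The median log2 difference of the 5 was 0.32. The integrin chain Itgb1, through which Sema7a is also bound, read 1793, 6527, 2345 and 940, highest in CD25lo Foxp3+ cells. Cd72, a receptor for Sema4d on B cells, read 264, 203, 178 and 193. L1cam, an adhesion molecule that joins Nrp1 in axons, read 284, 241, 126 and 455. The Sema4a receptor gene Timd2 and the growth factor gene Vegfa, whose product binds Nrp1, were at the floor in every array.

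Of 38 intracellular partners 35 had a probe set of 1 gene and 25 reached the filter. Crmp1, a mediator of semaphorin signals to microtubules, was the 1 of 25 higher in the Foxp3 pairing, near the 2.8% of all measured genes, and none was lower, beside 1.93%. It read 286, 252, 145 and 103, a gap of 1.73-fold. None passed by CD25, beside 1.29% of all measured genes. In the pairing by neither marker 1 passed, Ranbp9, at 297, 547, 564 and 287, beside 3.06% of all. The median log2 difference of the 25 was 0.27. Cfl1 (cofilin), which severs actin filaments, read between 17840 and 21193, the GTPase gene Rap1b between 10241 and 13667, and the kinase gene Fyn between 4955 and 6284. Gipc1, whose product binds the tail of Nrp1, read 136, 125, 101 and 80.1, with no overlap between the Foxp3 states and a gap of 1.23-fold.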

How the data were processed

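Per the labels, total RNA of each sorted population was amplified in vitro and hybridised to an Affymetrix whole-genome mouse array. Each deposited value is an intensity, linear and above 0, for 1 probe set in 1 array. The probe summary, background correction and normalization are not given in the sources used here. Column medians differed by at most 4.05%, within a limit of 10%, so the deposited scale was kept and log2 was taken of these intensities.

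Groups came from the sample titles. Values under the 40th percentile, 10.1, were set to it as a floor, and a gene was measured if a probe set reached the 60th percentile, 32.5. A gene was read from the probe set with the highest mean log2, and for the 8 genes the others are described beside it. All 8 genes matched the RefSeq table by Entrez identifier. With 1 array per group, size rules replaced tests. Precision is limited by the number of arrays. The rules were tested on simulated data.

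The genes and lists were chosen with earlier results of these data known. By rule, the text names the 8 genes, the sort genes, up to 3 most like genes each, and in each of 3 pathway lists those past the Foxp3 or CD25 pairing, at most 4 in each direction, and the 3 with the highest mean. Markers, Gipc1, Ranbp9, Sema3a, Sema3e, Timd2, Vegfa and the genes of the closing observations were named after their values were seen. Python 3.11.15, numpy 2.4.6 and pandas 2.3.3 were used. Alternatives changed the floor, filter, scaling, probe set rule and size rules.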

Additional observations from a re-analysis of the deposited data

Results flagged for a closer look

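The difference by CD25 ran in opposite directions in Foxp3+ and Foxp3- cells, by at least 1.5-fold in each, for 2 probe sets. The log2 difference of Sema7a was -0.69 for CD25hi over CD25lo among Foxp3+ cells and 0.96 for CD25+ over CD25- among Foxp3- cells. That of Sema4a probe set 1448110_at was 0.64 and -1.89, while its other probe set, 1438934_x_at, was lower in the higher CD25 state on both sides, at -0.45 and -0.65. On the Foxp3+ side each of the 2 rested on a reading under the filter. It was 24.5 for Sema7a in CD25hi and 26.5 for 1448110_at in CD25lo Foxp3+ cells, so the size of these differences is uncertain. With 1 array per group the difference between the 2 sides was not tested.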

How the results depend on the processing

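Every gene was read under a lower floor, no floor, no filter, a stricter filter, median scaling, quantile normalization, the median over probe sets, and without probe sets ending in _s_at, _x_at or _a_at. Of 90 counts so obtained, with larger size rules included, 86 stayed within 1.5 times the main count. Some of the 86 gained or lost a gene. By the median over probe sets, Sema4d passed the Foxp3 pairing upward and was 2-fold from CD25+ Foxp3- cells in neither Foxp3+ array. For CD25hi Foxp3+ cells, Plxnd1 was no longer 2-fold from CD25- Foxp3- cells under quantile normalization. Under median scaling it was 2-fold from CD25+ Foxp3- cells. Of the log2 differences of single genes, 107 moved by less than 0.43, a rough bound on the spread of 1 array. A further 4 moved by more, all for Nrp1 or Sema4a under another probe set rule, and 1 turned. The floor and filter settings could not move them, since the 7 genes passed both filters and read above the floor throughout. Such settings could change a count only by adding Nrp2 where no filter was used. The median over probe sets could not move Plxnd1, Sema4b or Sema7a, each with a single probe set at the filter. At a gap of 2-fold, 1 gene was higher in the Foxp3 pairing, Nrp1, since Plxnd1 lay just under it. At 3-fold, 2 genes differed between CD25lo Foxp3+ and CD25+ Foxp3- cells. Between CD25+ and CD25- Foxp3- cells 2 genes were 2-fold apart with the median over probe sets and without those endings, Sema4a joining Nrp1 through its second probe set. The Sema4d log2 difference of CD25+ minus CD25- in Foxp3- cells turned from -0.78 to 0.07 with the median over probe sets, which takes 1420823_at. No paired analysis was possible because each group has 1 array and the labels give no replicate number, and no array could be left out for the same reason. Scaling moved the median of all genes by under 0.1 on the log2 scale. Readings under 32.5, such as those of Nrp2, limit what can be ordered.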

Other observations

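Some semaphorin pathway genes that passed neither pairing stood apart in 1 array. Sema6d, a membrane semaphorin, read 70.2 in CD25+ Foxp3- cells against 5.81 in CD25hi Foxp3+, 12.8 in CD25lo Foxp3+ and 5.21 in CD25- Foxp3- cells, so it was measured through that array alone. Sema4c and Plxnb2 were highest in the same cells, at 31.0 and 30.2, both under the filter. Tiam1, an activator of the GTPase Rac, read 2217, 2079, 1533 and 165 in the order of the report, low in CD25- Foxp3- cells alone. These values come from 1 array per population and were picked after they were seen.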
